A study of Mus musculus with 8 samples.

Results

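Long noncoding RNAs that were well counted in mouse embryonic stem (ES) cells are described here, after loss of the transcription factor OCT4 and after withdrawal of the cytokine LIF. A gene symbol was included when all of its RefSeq accessions were noncoding (prefix NR_) and its raw reads, summed over accessions and all 8 libraries, reached 1000. MicroRNA and small nucleolar RNA genes and the imprinted RNAs H19, Meg3, Rian, Mirg, Kcnq1ot1 and Airn were left out. This gave 65 RNAs of 24921 symbols and unnamed accessions in the tables, and of 4152 symbols with noncoding accessions only. At the threshold, Gm8615 (1013 reads) and Gm15421 (1041 reads) were just inside, and 4632415L05Rik (992 reads) and Npm3-ps1 (983 reads) were just outside. Of 76 noncoding entries at or above 1000 reads, 11 were left out, 5 by their microRNA names (Mir6236, Mir682, Mir17hg, Mir703 and Mirg, which is also one of the imprinted RNAs), 3 others as imprinted (Rian, Meg3 and Kcnq1ot1) and 3 because their accession had no symbol. The name long noncoding RNA fitted only part of the set. The RefSeq table classed 41 of the 65 as lncRNA, 21 as transcribed pseudogenes and 2 (0610012G03Rik and Gm10033) as protein coding, and did not list D930016D06Rik, so the pseudogenes are kept apart below.

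The study compared 4 groups, each with 2 libraries of poly(A)-selected RNA from V6.5 cells, a C57BL/6-129 hybrid ES line grown in 2i medium on gelatin. The first was a line with OCT4 fused to FKBP (OCT4-FKBP), treated for 24 h with dTAG (spelled dTag9 in the treatment label), a small molecule that recruits FKBP-tagged protein to the ubiquitin ligase machinery. The second was the same line after 24 h in DMSO. The third was the untagged line (WT) 5 days after LIF was withdrawn, and the fourth was WT with normal LIF. Both OCT4-FKBP groups carry the tag, and the labels do not say how many clones of that line were used. Nothing in the labels says that the libraries of a group came from separate cultures, so the spread behind each p-value is that of these libraries and may be technical.

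Long noncoding RNAs are made by RNA polymerase II, and most are capped, spliced and polyadenylated like mRNA. Small nucleolar RNA (snoRNA) host genes carry snoRNAs in their introns. These small RNAs guide methylation and pseudouridylation of ribosomal RNA, while the spliced host RNA is exported and often decays quickly on the ribosome. Antisense RNAs overlap a coding gene on the opposite strand, and intergenic ones have promoters of their own; several of both kinds were named for their expression in pluripotent cells. Transcribed pseudogenes are copies of coding genes that have lost the reading frame but still give RNA.

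By position in the RefSeq table, 12 of the 65 were snoRNA hosts, 8 were antisense to a coding gene, 24 were intergenic or other, and 21 were pseudogenes. Together they held 325054 reads, which was 0.423% and 0.472% of counted reads in the dTAG libraries, 0.430% and 0.470% in the DMSO libraries, 0.370% and 0.363% without LIF, and 0.456% and 0.443% with LIF. Malat1 held 18.7% of these reads. The totals were 1549 to 8612 reads for snoRNA hosts, 1126 to 5252 for antisense RNAs, 1063 to 60903 for intergenic RNAs and 1013 to 57500 for pseudogenes. For 12 RNAs fewer than 750 reads lay outside the group in which they were highest, and AU015836 had 208, so these reached the threshold largely through that group. For any of the 12 described below, a comparison that involves its highest group is a description, with no test. Counted reads per library were 9430702 and 9179808 with dTAG, 7221451 and 11447468 with DMSO, 11417897 and 7238413 without LIF, and 11308343 and 8323172 with LIF. All 65 passed edgeR's filter on low counts. Levels below are CPM, counts scaled to TMM-adjusted library sizes, with no correction for length, so they are compared between samples and not between genes.

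The cells carried ES markers in every group. Summed over Pou5f1, Sox2, Zfp42, Tdgf1, Dppa5a and Utf1, the level was 1080 to 1095 CPM with dTAG and 2868 to 2871 CPM with DMSO, and 2102 to 2147 CPM without LIF and 3710 to 3729 CPM with LIF. Of the 6, 2 went against the sum without LIF. Tdgf1 had 1141 and 1134 CPM without LIF and 664 and 760 CPM with LIF, and Utf1 had 236 and 231 CPM without LIF and 56.1 and 53.9 CPM with LIF. Pou5f1 itself, which encodes OCT4, had 84.5 and 90.1 CPM with dTAG and 77.4 and 77.7 CPM with DMSO, and 205 and 170 CPM without LIF and 425 and 336 CPM with LIF. The counted level of Pou5f1 was thus lower in the tagged line than in WT in both treatments. Since dTAG acts on the protein, this level does not check the loss. The 7 fibroblast markers summed to 16.3 to 19.1 CPM with dTAG, 21.3 to 23.4 CPM with DMSO, 19.7 to 20.4 CPM without LIF and 9.08 to 9.28 CPM with LIF. Dcn was at 0 in all 8 libraries, Pdgfrb was at or below 0.18 CPM, and Thy1 was the highest of the 7 in 7 of the 8 libraries. Without LIF the collagen genes were higher, with Col1a2 at 6.65 and 7.08 CPM, against 0.53 and 0.82 CPM with LIF, Col1a1 at 4.69 and 5.04 CPM, against 1.94 and 2.59 CPM, and Col3a1 at 1.19 and 1.23 CPM, against 0 in both libraries with LIF. These sums moved with the groups, and their part in the results below was not tested.

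Loss of OCT4 was followed by lower levels of more of these RNAs than higher ones. In edgeR's quasi-likelihood test across 10311 genes, with Benjamini-Hochberg adjusted p of 0.05 or less, 5 of 65 were higher with dTAG than with DMSO and 24 were lower. Over all genes tested the percentage called was 40.5%, with 20.1% higher and 20.3% lower. The median log2 fold change was -0.17 over the 65 and 0 over all genes. With the pseudogenes left out, 4 of 44 were higher and 18 were lower. Among the 53 RNAs with at least 750 reads outside their highest group, a subset formed after the data were seen, 4 were higher and 16 were lower. The count of lower RNAs was 14 with DESeq2 and 15 without the second DMSO library, and the count of higher ones was 3 with DESeq2 and 3 without the first dTAG library. The share of all genes called under those settings is not given here, so these counts have no background beside them. In bulk RNA, fewer cells of a type and less RNA per cell cannot be told apart, here or in any comparison below.

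Withdrawal of LIF for 5 days changed more of them. Without LIF, 14 of 65 were higher than with LIF and 39 were lower by the same edgeR test. The background was 68.4% called, with 34% higher and 34.4% lower. The median log2 fold change was -0.42 over the 65 and -0.02 over all genes. In the 44 that are not pseudogenes, 10 were higher and 26 were lower, and in the 53 RNAs less dependent on their highest group 12 were higher and 30 were lower. The dTAG and LIF comparisons use separate control libraries, and 19 of the 65 were lower in both, against 11.5% of all genes tested. Of the 19, 2310043M15Rik, Gm21283 and 4930461G14Rik reached the threshold largely through the DMSO libraries. Panct2, 5430416N02Rik and Gm6083 reached it largely through the LIF libraries. Being high in a control favours a call of lower, so the count of 19 is a description. A further 3 were higher in both (AU015836, Thap6 and Gm10033), 3 were lower with dTAG and higher without LIF (Eprn, 4933404O12Rik and Gm9833), and D7Ertd143e alone was higher with dTAG and lower without LIF. Over all genes tested, 9.31% were higher in both, 4.71% were lower with dTAG and higher without LIF, and 5.89% were higher with dTAG and lower without LIF. Neither test called 9 of the 65, against 22.5% of all genes tested. AU015836 and Eprn reached the threshold largely through the libraries without LIF, which favours a call of higher there.

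**Figure D1:**
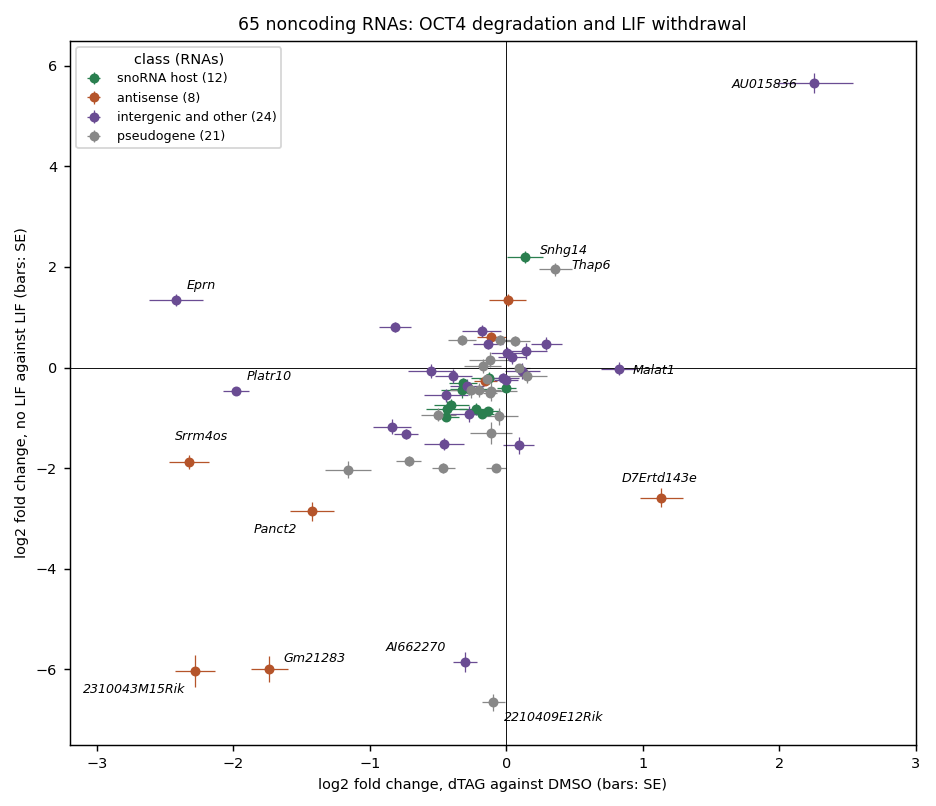
Log2 fold change of each of the 65 RNAs with dTAG against DMSO (horizontal axis) and without LIF against LIF (vertical axis); points are RNAs coloured by class and bars are standard errors. Most points lie near the centre, AU015836 lies far up both axes, and D7Ertd143e is the RNA at 1.14 on the horizontal and -2.59 on the vertical axis.

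The snoRNA hosts were lower as a class without LIF. All 12 have at least 1 annotated snoRNA inside their span, from 1 in Snhg6, Snhg8, Snhg15 and Snhg4 to 8 in Snhg1 and 206 in Snhg14, whose locus is the repeated snoRNA cluster of the Prader-Willi region. Without LIF, 10 of 12 fell, Snhg14 rose and 1110038B12Rik did not pass the edgeR test, with a median log2 fold change of -0.59 over the class. The share called was 91.7%, against 68.4% of all genes tested. With dTAG, 4 of 12 were lower and none higher, with a median of -0.25, which was -0.39 without the first DMSO library and -0.06 without the second. That is 33.3% of the hosts called, against 40.5% of all genes tested. In the tagged line in DMSO 9 of 12 were lower than in WT with LIF and Snhg14 was higher, with a median of -0.46 (-0.29 without the first DMSO library); this comparison shares the LIF libraries with the LIF comparison and the DMSO libraries with the dTAG comparison. In it the libraries of Snhg14 and of Snhg3 overlapped between groups, and DESeq2 did not call Snhg14 (adjusted p = 0.27), Snhg3 (adjusted p = 0.22) or Snhg1 (adjusted p = 0.16). The share of hosts that edgeR called there was 83.3%, against 40.6% of all genes tested.

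The first bases of host RNAs are shown because many snoRNA hosts are known to start with a run of pyrimidines (a 5′ terminal oligopyrimidine tract), the feature they share with ribosomal protein mRNAs. Each line gives 10 bases before and 20 bases from the start of the gene in the RefSeq table of build GRCm38.p6, read on the gene's strand from the promoter table, with the longest run of C or T in capitals.
Snhg12, chr4:132308668-132308697, + strand: ttctcagTCCTTTCTCgcttcatccgcggt
Snhg1, chr19:8723477-8723506, + strand: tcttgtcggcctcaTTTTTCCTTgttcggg
2410006H16Rik, chr11:62602867-62602896, + strand: cgccgTCTTTCTCTgcggccatcatgggat
Snhg5, chr9:88522878-88522907, - strand: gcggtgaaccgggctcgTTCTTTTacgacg
Snhg8, chr3:123508317-123508346, - strand: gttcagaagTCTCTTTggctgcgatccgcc
1110038B12Rik, chr17:34952452-34952481, - strand: gcggcacacgggTCTCTTTgtgcacccgcc
Snhg3, chr4:132353667-132353696, - strand: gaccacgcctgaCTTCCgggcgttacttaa
Zfas1, chr2:167062924-167062953, + strand: tgcgCCCCgggcggccgcaggtctcggctg
Snhg15, chr11:6528741-6528770, - strand: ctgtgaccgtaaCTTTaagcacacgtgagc
Snhg14, chr7:60450158-60450187, - strand: gagtgtgaTTagtcaagtcagtgcagcagg
A run of 6 or more pyrimidines lay in this window in 6 of the 10 hosts with an entry (60%), and in 28.6% of 27025 promoters of the table. Those 6 are the first 6 lines. Of these, Snhg12, Snhg1, 2410006H16Rik, Snhg5 and Snhg8 fell without LIF, and 1110038B12Rik, with a run of 7, was not called. Snhg3, Zfas1 and Snhg15 had runs of 5, 4 and 4 and also fell, and Snhg14 had no run longer than 2 and rose. The relation of the runs to the LIF response was not tested. A run in the letters does not show where transcription started in these cells.

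Snhg5 was the host with the most reads. It had 112 and 126 CPM with dTAG and 115 and 122 CPM with DMSO, so the libraries overlapped and the adjusted p was 1 in edgeR. In cells without LIF it had 91.0 and 96.4 CPM, against 124 and 125 CPM with LIF, a log2 fold change of -0.41 (SE 0.07). The 2 libraries without LIF lay below all 6 others.

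Zfas1, a host whose start faces that of Znfx1, had 54.5 and 54.3 CPM without LIF and 102 and 94.6 CPM with LIF, a log2 fold change of -0.86 (SE 0.08). With dTAG it had 55.5 and 59.9 CPM, against 60.2 and 65.7 CPM with DMSO, which did not pass the test (adjusted p = 0.22 in edgeR). Its LIF libraries were the only 2 above 90 CPM. Znfx1, an RNA helicase gene on the other strand, fell without LIF (log2 fold change -1.08, SE 0.11) and, where Zfas1 was not called, also with dTAG (-0.42, SE 0.10, adjusted p = 0.0014 in edgeR).

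2410006H16Rik, which holds 3 snoRNAs, was the only host that fell with dTAG in edgeR, in DESeq2 and without each library in turn. It had 33.1 and 32.7 CPM with dTAG and 44.1 and 45.2 CPM with DMSO, and the change was -0.44 on the log2 scale (SE 0.09, adjusted p = 0.00029 in edgeR). It had 52.5 and 50.5 CPM without LIF and 107 and 98.6 CPM with LIF, a log2 fold change of -0.99 (SE 0.08). In each comparison the groups were apart, and WT with LIF stood above all other libraries.

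The other 3 hosts lower with dTAG depended on single libraries. Snhg1 had 52.1 and 65.2 CPM with dTAG and 68.2 and 77.2 CPM with DMSO, a log2 fold change of -0.32 (SE 0.10), which was -0.17 with an adjusted p of 0.28 in edgeR without the first dTAG library and -0.22 with 0.18 without the second DMSO library; without the second dTAG library it was -0.49. Snhg12 (-0.40, SE 0.13) and Snhg15 (-0.44, SE 0.15) lost the call without the first dTAG library, without the second DMSO library and with DESeq2. For Snhg12 the adjusted p was 0.37 in edgeR without the second DMSO library, and for Snhg15 it was 0.32. Conversely, Snhg3, Snhg8 and Snhg4, not called with all libraries, were lower without the first DMSO library (adjusted p = 0.0019, 0.026 and 0.041 in edgeR), and Snhg8 also without the first dTAG library (adjusted p = 0.012 in edgeR). Snhg3 also passed without either LIF library (adjusted p = 0.022 and 0.025 in edgeR).

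Without LIF, Snhg6 had 44.9 and 40.9 CPM, against 87.6 and 75.5 CPM with LIF, a log2 fold change of -0.92 (SE 0.09). Snhg8 had 31.4 and 33.3 CPM without LIF and 58.5 and 55.3 CPM with LIF (-0.82 on the log2 scale, SE 0.12). In both, the groups were well apart. Snhg12 (-0.74), Snhg15 (-0.82), Snhg3 (-0.45), Snhg4 (-0.42) and Snhg1 (-0.31) also fell. Of these, Snhg1, Snhg3 and Snhg4 were not called by DESeq2 (adjusted p = 0.058, 0.24 and 0.068) or without the first library lacking LIF (adjusted p = 0.22, 0.23 and 0.065 in edgeR), and Snhg3 and Snhg4 were not called without the second LIF library (0.25 and 0.11). Snhg3 had 35.7 and 44.5 CPM without LIF and 45.3 and 64.1 CPM with LIF, so its nearest libraries differed by less than 1 CPM; the log2 fold change was -0.71 without the first LIF library and -0.17 without the second.

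Snhg14 went the other way from its class. It is transcribed over the snoRNA clusters and across Ube3a, a ubiquitin ligase gene, on the opposite strand. It had 109 and 128 CPM without LIF and 25.3 and 26.5 CPM with LIF, which is 4.58-fold higher (log2 fold change 2.20, SE 0.12, adjusted p = 1.2e-14 in edgeR). The groups were far apart, and all other libraries stayed at or below 40.6 CPM. With dTAG it had 32.9 and 40.6 CPM, against 26.1 and 39 CPM with DMSO, and the libraries overlapped; without the second DMSO library the log2 difference of 0.14 became 0.49 (adjusted p = 0.01 in edgeR). Ube3a had 3.33 and 4.36 CPM without LIF and 1.59 and 3.06 CPM with LIF (log2 fold change 0.74, SE 0.33, adjusted p = 0.047 in edgeR).

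**Figure D2:**
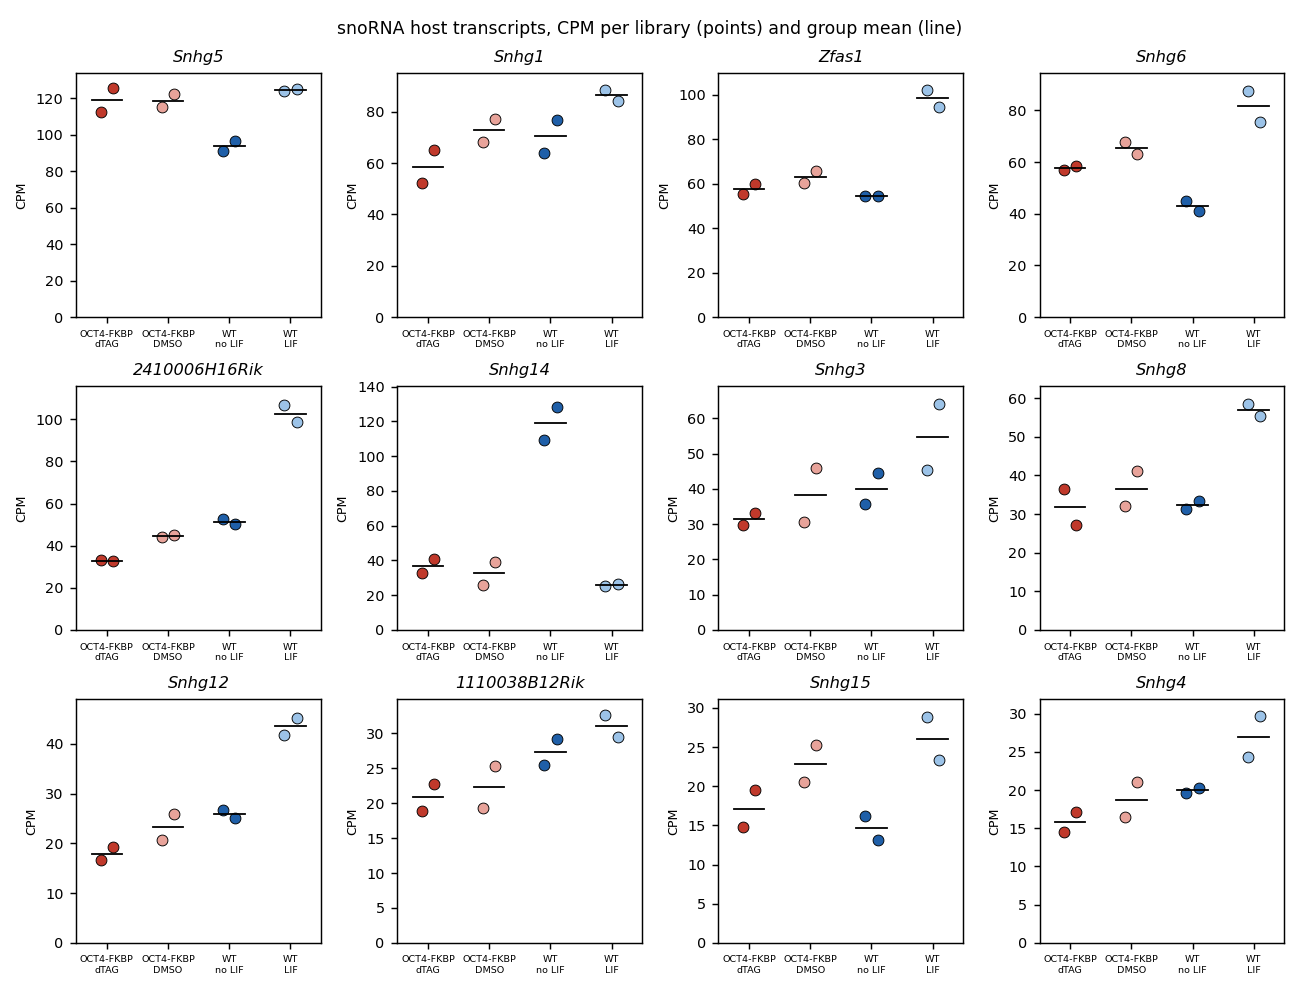
CPM of the 12 snoRNA hosts in each library; points are libraries, lines are group means, and the groups from left to right are dTAG, DMSO, no LIF and LIF. Snhg14 is the panel in which the libraries without LIF, at 109 and 128 CPM, lie far above the rest, and in 2410006H16Rik and Zfas1 those with LIF lie above all others.

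The antisense RNAs had the lowest median of the 4 classes in both comparisons. Without LIF, all 8 passed the edgeR test, 2 higher and 6 lower, with a median log2 fold change of -2.24. With dTAG, 1 was higher and 4 were lower, with a median of -0.79, or -1.43 over the 7 with a single accession. The share called was 100% without LIF, against 68.4% of all genes tested, and 62.5% with dTAG, against 40.5%. 2310043M15Rik and Gm21283 reached the threshold largely through the DMSO libraries, and Panct2 through the LIF libraries. The class counts, shares and medians that include them are thus descriptions. Whether the reads were counted by strand is not known here, so reads from an antisense RNA and from its coding partner cannot be told apart with certainty where exons overlap.

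D7Ertd143e is the transcript whose span holds the miR-290 cluster, the main microRNA cluster of mouse ES cells, and overlaps Nlrp12 on the other strand. RefSeq places 7 microRNA genes in the span, Mir291a, Mir291b, Mir292, Mir292b, Mir293, Mir294 and Mir295. The 5 mature 3p arms listed on its strand are shown because 3 share a seed, the bases that pair with target mRNAs; the seed (bases 2 to 8) is in capitals, and the sequences are from RefSeq, build GRCm38.p6.
mmu-miR-291a-3p: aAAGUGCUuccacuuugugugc
mmu-miR-294-3p: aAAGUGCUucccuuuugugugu
mmu-miR-295-3p: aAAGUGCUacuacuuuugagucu
mmu-miR-291b-3p: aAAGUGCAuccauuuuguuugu
mmu-miR-293-3p: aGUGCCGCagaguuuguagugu
The first 3 share the seed AAGUGCU, miR-291b-3p has AAGUGCA and miR-293-3p has GUGCCGC. No 3p arm was listed on this strand under the names Mir292 or Mir292b, so the 5 may not be all 3p arms of the cluster. The microRNAs themselves were not measured, and the counts below are of the polyadenylated transcript.

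D7Ertd143e had 38.1 and 51.9 CPM with dTAG, against 15.6 and 24.0 CPM with DMSO. After LIF withdrawal it had 7.68 and 7.91 CPM, against 40.8 and 53.9 CPM with LIF. The dTAG and LIF libraries covered the same range, the DMSO libraries lay below both, and the libraries without LIF were lowest. It was 2.20-fold higher with dTAG (log2 fold change 1.14, SE 0.16, adjusted p = 1.5e-06 in edgeR) and 6.03-fold lower without LIF (log2 fold change -2.59, SE 0.18, adjusted p = 2.2e-12 in edgeR). In DMSO it was 2.29-fold lower than in WT with LIF (adjusted p = 8.9e-07 in edgeR). Nlrp12 was listed with 42 reads over all libraries and was not tested.

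2310043M15Rik, antisense to the endosomal trafficking gene Dop1b, had 8.10 and 8.54 CPM with dTAG and 38.5 and 42.2 CPM with DMSO. The groups did not overlap. Since 513 of its 1266 reads lay outside the DMSO libraries, this log2 difference of -2.28 is a description. In the libraries without LIF it had 1 and 4 reads, or 0.09 and 0.55 CPM, and with LIF it had 189 and 168 reads, or 16.7 and 19.8 CPM. The log2 fold change was -6.03 (SE 0.32), and the libraries were far apart.

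Gm21283, antisense to the cilia gene Hydin, had 9.19 and 8.10 CPM with dTAG and 27.2 and 30.1 CPM with DMSO, a log2 difference of -1.74 that is a description, since 647 of its 1183 reads lay outside the DMSO libraries. After LIF withdrawal it had 4 and 3 reads, or 0.34 and 0.41 CPM, and with LIF it had 23.7 and 25.2 CPM (log2 fold change -6.00, SE 0.26). The groups did not overlap in either comparison. Hydin moved the other way with dTAG, with 53 and 56.9 CPM against 40.6 and 33.7 CPM in DMSO (log2 fold change 0.58, SE 0.10, adjusted p = 4e-05 in edgeR). Without LIF it fell as Gm21283 did (log2 fold change -3.70, SE 0.17).

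Panct2, named as a pluripotency-associated noncoding transcript, had 8.10 and 7.87 CPM with dTAG and 19 and 23.4 CPM with DMSO (log2 fold change -1.43, SE 0.16, adjusted p = 5.1e-08 in edgeR). Without LIF Panct2 had 3.67 and 3.41 CPM, against 23.2 and 29.3 CPM with LIF, a log2 difference of -2.86 that is a description, since 614 of its 1126 reads lay outside the LIF libraries. The libraries with dTAG and those without LIF lay well below their controls. Slco4c1, the organic anion transporter gene on the opposite strand, fell in both comparisons, with log2 fold changes of -1.61 (SE 0.13) with dTAG and -3.15 (SE 0.14) without LIF.

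Srrm4os, opposite the neural splicing factor gene Srrm4, had 6.24 and 6.32 CPM with dTAG and 30.6 and 32.3 CPM with DMSO, which is 5.02-fold lower (adjusted p = 6.3e-13 in edgeR). Without LIF Srrm4os had 8.37 and 6.14 CPM, against 27.3 and 27.8 CPM with LIF, 3.68-fold lower (adjusted p = 6.5e-12 in edgeR). The control libraries of both lines were close to each other, at 27.3 to 32.3 CPM. Srrm4 had 4.38 and 3.77 CPM with dTAG and 3.79 and 3.78 CPM with DMSO, a log2 difference of 0.11 (SE 0.31), and fell without LIF (log2 fold change -1.73, SE 0.39).

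The other 3 antisense RNAs were not called with dTAG. 1110002L01Rik, opposite the kinesin gene Kif3c, had 57.7 and 52.1 CPM without LIF and 19.8 and 24.1 CPM with LIF (log2 fold change 1.34, SE 0.11), with no overlap. Brip1os rose without LIF (0.61, SE 0.10) and 2810025M15Rik fell (-0.26, SE 0.08). For Kif3c the log2 difference without LIF was -0.04 (SE 0.11), and Rasal2, opposite 2810025M15Rik, rose by 0.36 (SE 0.07).

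**Figure D3:**
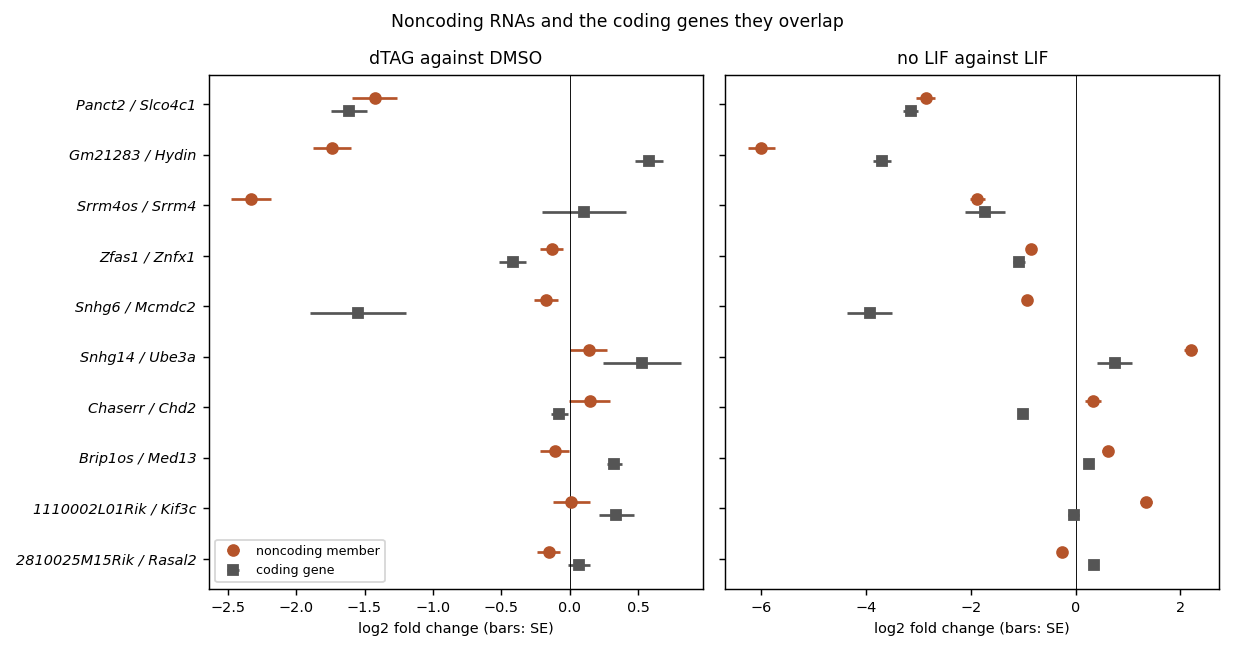
Log2 fold change of noncoding RNAs (circles) and of the coding gene each overlaps (squares), with dTAG against DMSO (left) and without LIF against LIF (right); bars are standard errors. Panct2 and Slco4c1 lie close together in both panels, while Gm21283 and Hydin lie on opposite sides of 0 with dTAG.

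The promoters of 3 antisense RNAs that fell in both comparisons and of D7Ertd143e are shown, to set their letters beside the loss of OCT4 and of LIF signalling. Each is the stretch from 250 bases before to 50 bases after the RefSeq start, build GRCm38.p6, on the gene's strand. Capitals mark matches on either strand to TGCAAAT (octamer-type, the element OCT4 binds), TTCNNNGAA (the palindrome bound by STAT factors, which act downstream of LIF) or CACGTG (E-box).
2310043M15Rik, chr16:93794852-93795151, - strand: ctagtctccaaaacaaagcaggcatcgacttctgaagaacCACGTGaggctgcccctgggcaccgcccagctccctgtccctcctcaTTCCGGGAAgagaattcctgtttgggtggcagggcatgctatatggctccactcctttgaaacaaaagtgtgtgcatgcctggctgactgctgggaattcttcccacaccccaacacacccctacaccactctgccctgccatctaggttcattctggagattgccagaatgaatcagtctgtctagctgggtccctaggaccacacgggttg
Gm21283, chr8:110502307-110502606, - strand: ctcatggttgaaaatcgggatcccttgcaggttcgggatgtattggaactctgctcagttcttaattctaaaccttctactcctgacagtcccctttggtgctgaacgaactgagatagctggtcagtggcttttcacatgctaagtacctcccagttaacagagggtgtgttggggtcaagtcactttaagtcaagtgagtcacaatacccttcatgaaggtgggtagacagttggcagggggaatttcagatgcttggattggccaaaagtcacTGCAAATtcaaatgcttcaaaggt
Panct2, chr1:96870876-96871175, + strand: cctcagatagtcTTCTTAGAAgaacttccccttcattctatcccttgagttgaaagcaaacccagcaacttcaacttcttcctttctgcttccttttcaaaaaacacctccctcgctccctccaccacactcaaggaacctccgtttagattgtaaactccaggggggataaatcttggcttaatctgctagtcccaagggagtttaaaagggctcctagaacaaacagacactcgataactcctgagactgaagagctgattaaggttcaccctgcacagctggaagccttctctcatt
D7Ertd143e, chr7:3218534-3218833, + strand: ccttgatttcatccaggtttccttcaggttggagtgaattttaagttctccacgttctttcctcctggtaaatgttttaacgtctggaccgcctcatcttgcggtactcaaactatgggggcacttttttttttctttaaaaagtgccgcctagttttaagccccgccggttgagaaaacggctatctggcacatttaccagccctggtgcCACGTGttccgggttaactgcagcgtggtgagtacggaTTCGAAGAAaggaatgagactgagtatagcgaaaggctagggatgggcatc
Over the 33 RNAs with a promoter in the table, TGCAAAT was in 2 (6.06%, Gm21283 and A630089N07Rik), against 3.98% of 27025 promoters. TTCNNNGAA was in 3 (9.09%), against 8.47%, and CACGTG was in 7 (21.2%), against 7.24%. The 7 were Platr10, D7Ertd143e, Snhg15, 1110002L01Rik, 1700001L05Rik, 2310043M15Rik and Firre, which changed in different directions. A match is only a match of letters, and binding was not measured.

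Among the 24 intergenic and other RNAs, 3 were higher and 10 lower with dTAG, and 7 were higher and 10 lower without LIF, by edgeR at an adjusted p of 0.05 or less. The share called was 54.2% with dTAG, against 40.5% of all genes tested, and 70.8% without LIF, near the 68.4% of all genes. Their medians were -0.23 with dTAG and -0.12 without LIF on the log2 scale. The first was -0.11 without the second DMSO library, and the second ran from -0.19 to -0.05 when libraries were left out in turn. AU015836 and Eprn reached the threshold largely through the libraries without LIF. For 5430416N02Rik and 1500011B03Rik it was largely the LIF libraries, and for 4930461G14Rik the DMSO libraries. The class counts, shares and medians that include them are thus descriptions.

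Malat1, an abundant nuclear RNA of the splicing speckles, had 1088 and 1432 CPM with dTAG and 569 and 851 CPM with DMSO. It was 1.77-fold higher (log2 fold change 0.82, SE 0.13, adjusted p = 1e-05 in edgeR), although both groups spread widely. Without LIF Malat1 had 639 and 584 CPM, and with LIF 720 and 519 CPM, and the libraries overlapped. The share of reads that fell in no annotated feature was 13.4% and 14.9% with dTAG and 13.8% and 14.8% with DMSO. It was 10.44% and 11.21% without LIF and 12.65% and 13.37% with LIF, so the second library had more such reads in every group. In both OCT4-FKBP groups the library with more such reads had more Malat1, D7Ertd143e, Firre and Snhg14. In the WT groups the library with more such reads had more of the last 3 but less Malat1. The part of this in their values was not tested.

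Firre, an X-linked nuclear RNA that takes part in chromosome organisation, had 215 and 227 CPM without LIF and 123 and 144 CPM with LIF (log2 fold change 0.73, SE 0.12), with no overlap. Under dTAG Firre had 66.2 and 80.5 CPM, against 58.7 and 103 CPM with DMSO. The DMSO libraries lay on either side of both dTAG libraries. The log2 fold change was -0.18 (SE 0.14), but it was -0.50 without the first DMSO library and 0.32 without the second, each with an adjusted p under 0.05 in edgeR.

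Norad, which binds Pumilio proteins, had 65.2 and 69.3 CPM without LIF and 46.6 and 51.1 CPM with LIF (log2 fold change 0.46, SE 0.09). The change with dTAG did not pass the test (adjusted p = 0.35 in edgeR). Both OCT4-FKBP groups lay below both WT groups, at 25.2 to 31.1 CPM.

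Platr10 and Platr14 are pluripotency-associated transcripts, found by their expression in ES cells. Platr10 had 18.6 and 19.1 CPM with dTAG and 77.8 and 71.5 CPM with DMSO, 3.94-fold lower (log2 fold change -1.98, SE 0.09, adjusted p = 2.3e-15 in edgeR). In cells without LIF it had 64.3 and 67.2 CPM, against 92.3 and 88.2 CPM with LIF (log2 fold change -0.46, SE 0.08). Its dTAG libraries lay far below the other 6, and the dTAG change was lower than the LIF change by 1.52 on the log2 scale (SE 0.12, adjusted p = 6.9e-11 in edgeR).

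Platr14 showed the reverse order. It had 13.4 and 14 CPM without LIF and 38.3 and 40.5 CPM with LIF (log2 fold change -1.52, SE 0.13), and its LIF libraries were far above all others. The dTAG libraries had 11.7 and 12.2 CPM, against 13.6 and 18.5 CPM with DMSO. This call (log2 fold change -0.46, adjusted p = 0.014 in edgeR) was lost with DESeq2 (adjusted p = 0.09), without the second DMSO library (adjusted p = 0.51 in edgeR) and without the first dTAG library (adjusted p = 0.076 in edgeR).

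Eprn, known as Ephemeron in mouse ES cells leaving the naive state, was low with dTAG and high without LIF. It had 2.95 and 2.11 CPM with dTAG and 13.8 and 13.6 CPM with DMSO, 5.36-fold lower (adjusted p = 1.3e-10 in edgeR). After LIF withdrawal it had 34.5 and 35.5 CPM, against 13.4 and 14 CPM with LIF; as 569 of its 1233 reads lay outside the libraries without LIF, this difference of 1.35 on the log2 scale is a description. The DMSO and LIF libraries all lay between 13.4 and 14 CPM, and no groups overlapped in either comparison.

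AU015836, an X-linked RNA whose nearest coding gene is Zfx, had 66.8 and 61.4 CPM without LIF and 1.5 and 0.94 CPM with LIF. Since 208 of its 1440 reads lay outside the libraries without LIF, that difference of 5.66 on the log2 scale is a description of how it reached the threshold. The dTAG libraries had 95 and 56 reads, or 10.4 and 6.21 CPM, against 11 and 21 reads, or 1.54 and 1.85 CPM, with DMSO. It was 4.78-fold higher there (log2 fold change 2.26, SE 0.28, adjusted p = 2.5e-07 in edgeR).

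AI662270 was nearly lost without LIF, with 10 and 3 reads, or 0.85 and 0.41 CPM, against 39.5 and 41.5 CPM with LIF (log2 fold change -5.86, SE 0.20). With dTAG it had 53.7 and 53.6 CPM, against 66.0 and 66.5 CPM with DMSO (log2 fold change -0.30, SE 0.09), which was not called by DESeq2 (adjusted p = 0.055). The fall without LIF was far larger than that with dTAG, and the difference was 5.56 on the log2 scale (SE 0.24, adjusted p = 1.2e-16 in edgeR). Its nearest coding gene is Slfn3.

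Chaserr, which in mouse lowers the chromatin remodeller gene Chd2 next to it, had 17.1 and 22.3 CPM with dTAG and 16.1 and 19 CPM with DMSO. It had 17 and 15.4 CPM without LIF and 11.2 and 15.1 CPM with LIF (log2 difference 0.33, SE 0.16, adjusted p = 0.066 in edgeR). Chd2 fell without LIF (log2 fold change -1, SE 0.06). Chaserr itself passed neither test, but without LIF it passed with RLE size factors (adjusted p = 0.038 in edgeR).

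For the other 13 RNAs of this class, log2 fold changes ran from -0.84 in 4930461G14Rik to 0.12 in Gm14403 with dTAG, where 6 fell and none rose. For 4930461G14Rik this is a description, since 705 of its 1063 reads lay outside the DMSO libraries. Without LIF the 13 ran from -1.55 in 1700030C10Rik to 0.80 in 4933404O12Rik, with 7 lower and 2 higher. The 7 include 5430416N02Rik, as a description, since 698 of its 1120 reads lay outside the LIF libraries. Over all genes tested, 20.1% were called higher and 20.3% lower with dTAG, and 34% higher and 34.4% lower without LIF. These 13 are what remained after listed RNAs and the largest changes were described, so their counts are a description. 4933404O12Rik had 15 CPM in both libraries with dTAG, against 25 and 27.4 CPM with DMSO, and 49.6 and 50.2 CPM without LIF, against 27.8 and 29.4 CPM with LIF. It fell in the first comparison and rose in the second, with no overlap in either.

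**Figure D4:**
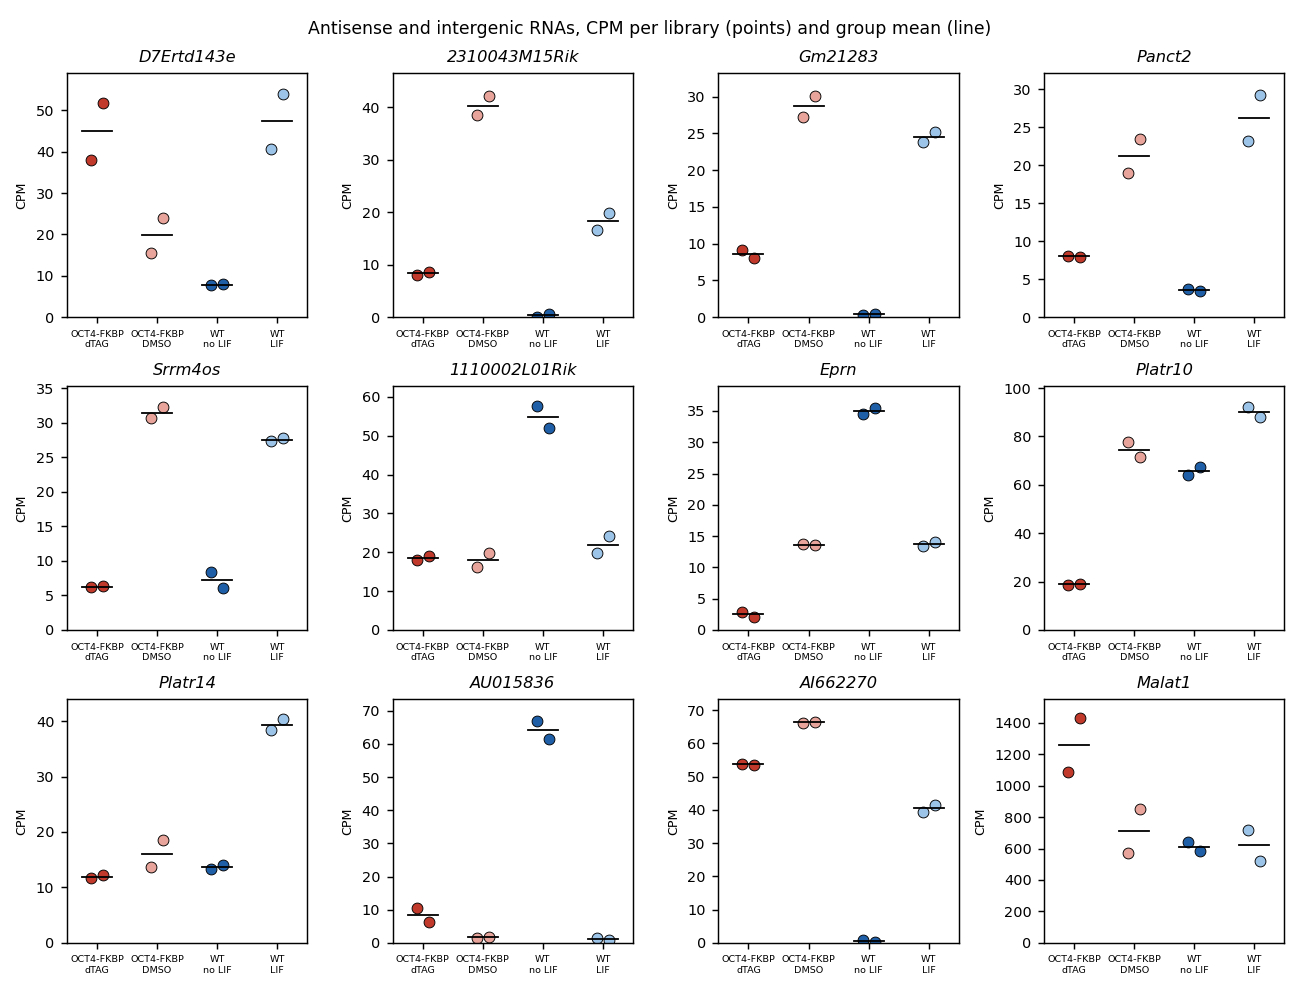
CPM of 12 antisense and intergenic RNAs in each library; points are libraries, lines are group means, and the groups from left to right are dTAG, DMSO, no LIF and LIF. D7Ertd143e is high with dTAG and with LIF, Eprn is high without LIF and low with dTAG, and 2310043M15Rik, Gm21283 and AI662270 are near 0 without LIF.

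Of the 21 pseudogenes, 1 was higher and 6 were lower with dTAG, and 4 were higher and 13 lower without LIF, by the same edgeR test. The share called was 33.3% with dTAG, against 40.5% of all genes tested, and 81% without LIF, against 68.4%. Gm6083 and Gm15421 reached the threshold largely through the LIF libraries, and Gm8615 and Tmem181b-ps through the DMSO libraries. The class counts and shares that include them are thus descriptions. Reads of 40 bases from a pseudogene and its parent gene can be identical, so these values are uncertain. 2210409E12Rik had 122 and 121 CPM with dTAG and 121 and 138 CPM with DMSO, and the libraries overlapped. In the libraries without LIF it had 1.54 and 0.95 CPM, against 148 and 120 CPM with LIF, 101-fold lower (log2 fold change -6.66, SE 0.17, adjusted p = 7.3e-22 in edgeR). No other RNA of the 65 fell as far without LIF.

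Gm5424 (4.01-fold lower) and Gm2381 (3.99-fold lower) also fell without LIF. Thap6, classed as a transcribed pseudogene in the RefSeq table, had 32.1 and 31.2 CPM without LIF and 8.03 and 8.35 CPM with LIF, 3.88-fold higher (adjusted p = 5.5e-13 in edgeR). With dTAG it had 24.0 and 21.3 CPM, against 18.5 and 17 CPM with DMSO. That call and the one for Gm10033, of the intergenic class, were lost with DESeq2, with adjusted p of 0.12 for Thap6 and 0.21 for Gm10033, and for both without the first dTAG library (0.22 and 0.29 in edgeR) and without the second DMSO library (0.22 and 0.17 in edgeR). For Gm10033 it was also lost without each other OCT4-FKBP library (0.068 and 0.15 in edgeR), without the second library lacking LIF (0.052 in edgeR) and with no filter (0.084 in edgeR). Gm10033 had 25.9 and 23.7 CPM with dTAG and 20.1 and 20.4 CPM with DMSO.

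Where a parent gene was tested, it could be set beside its copy. Tubb2a-ps2 fell by 0.72 (SE 0.09) with dTAG and by 1.86 (SE 0.10) without LIF on the log2 scale, and the tubulin gene Tubb2a fell by 0.64 (SE 0.11) and by 0.68 (SE 0.10). Rpl14-ps1 fell by 0.23 (SE 0.06) without LIF, and the ribosomal protein gene Rpl14 fell by 0.21 (SE 0.05). With dTAG Rpl14-ps1 fell by 0.14 (adjusted p = 0.045 in edgeR), while Rpl14 had a log2 difference of -0.05 (adjusted p = 0.49 in edgeR). Rps4l fell by 0.51 (SE 0.05) without LIF, while Rps4x had a log2 difference of -0.12 (SE 0.06, adjusted p = 0.064 in edgeR). Without LIF the changes of copy and parent were close in size for Rpl14 and apart for Tubb2a; these differences between genes were not tested. The other 14 pseudogenes ran from -1.16 in Gm6083 to 0.15 in Gm13498 with dTAG, and from -2.04 in Gm6083 to 0.55 in Gm9833 without LIF, on the log2 scale. For Gm6083 the value without LIF is a description, since 677 of its 1250 reads lay outside the LIF libraries.

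**Figure D5:**
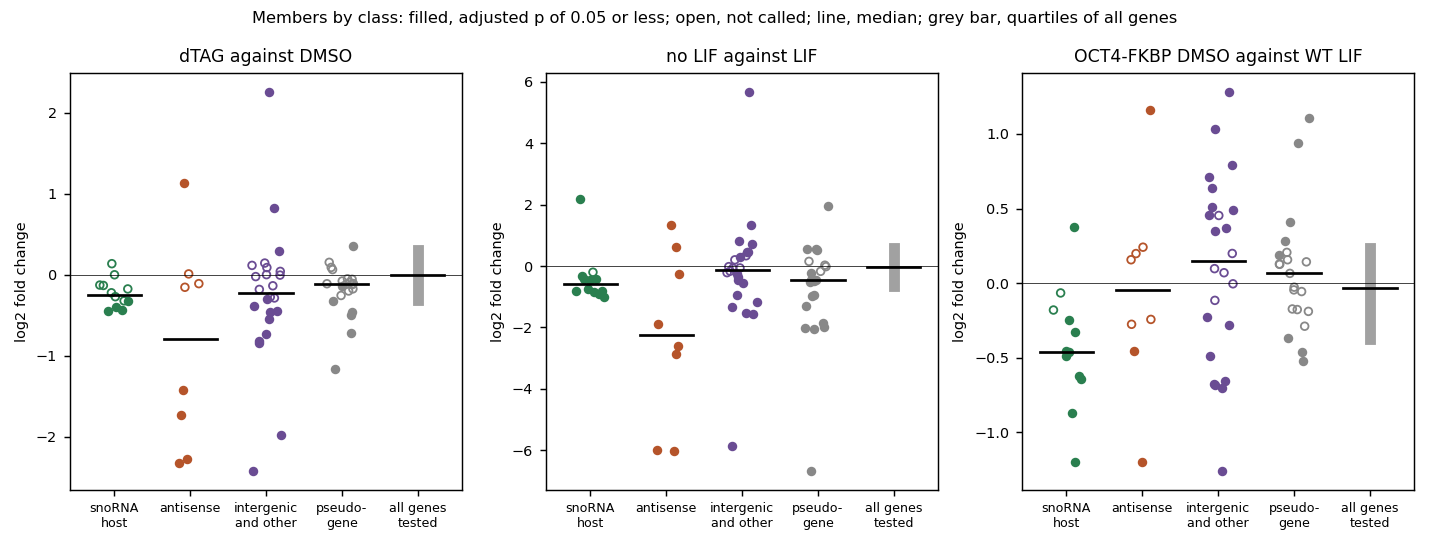
Log2 fold change of each RNA by class in 3 comparisons; filled points have an adjusted p of 0.05 or less in edgeR, open points do not, black lines are medians, and the grey bar spans the quartiles of all 10311 genes. As a description, the antisense class has the lowest median without LIF, at -2.24, and most snoRNA hosts lie below 0 in all 3 panels.

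The response to dTAG differed from the response to LIF withdrawal in 37 of the 65, by the edgeR test of the difference of the 2 log2 fold changes. Of these, 24 were positive and 13 negative, with 55% of all genes called, 28.6% positive and 26.4% negative. Among the 53 RNAs less dependent on their highest group, 18 were positive and 11 negative. Of these 53, the most positive was 2210409E12Rik (6.57, SE 0.21) and the most negative was Snhg14 (-2.06, SE 0.18). As descriptions only, the differences were 4.27 for Gm21283, -3.77 for Eprn and -3.40 for AU015836. Of the snoRNA hosts, 5 were positive and only Snhg14 was negative. For Srrm4os the difference was -0.45 (SE 0.22, adjusted p = 0.085 in edgeR) and did not pass the test, which does not show that the responses were alike.

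The tagged line in DMSO also differed from WT with LIF. By the edgeR test 17 of 65 were higher in the tagged line and 22 were lower, with 40.6% of all genes called, 18.5% higher and 22.1% lower. Among the 53 RNAs less dependent on their highest group, 15 were higher and 18 were lower. The tag, the clone, the DMSO and the culture cannot be told apart in this comparison. D430020J02Rik had 35.7 and 33.4 CPM in DMSO, against 13.7 and 14.7 CPM in WT with LIF, 2.43-fold higher (adjusted p = 1.6e-09 in edgeR), and it changed with neither dTAG nor LIF withdrawal by this test. Thap6 was higher too, 2.16-fold. Platr14 had 13.6 and 18.5 CPM in DMSO, against 38.3 and 40.5 CPM in WT with LIF, 2.39-fold lower (adjusted p = 7.7e-09 in edgeR). 2410006H16Rik (2.30-fold lower) and D7Ertd143e (2.29-fold lower) followed. In each of these 5 RNAs the DMSO and LIF libraries were apart by more than the libraries of a group. With DESeq2 the count of higher RNAs was 11, with no share of all genes given beside it.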

How the data were processed

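Poly(A)-selected RNA of 8 libraries was read from one end, 40 bases, with a strand-marking kit, per the labels' protocols. The tables deposited by the authors hold raw counts for each RefSeq accession; HISAT2, HTSeq and build mm9 are named, without versions, in the submitters' processing notes. Reads shared by accessions are not counted in such tables and were 42.5% of counted plus ambiguous reads.

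Of 41565 accessions, 41325 got a symbol from the RefSeq table of GRCm38.p6 and 126 from GENCODE. Counts were summed per symbol, and 55 of the 65 RNAs have 1 accession. Classes, neighbours and sequences come from GRCm38 tables, and no mm9 coordinate is used. edgeR 4.0.16 (R 4.3.3) was run with TMM, filterByExpr and the quasi-likelihood test in a joint fit of 4 groups, with 4 residual degrees of freedom; calls are Benjamini-Hochberg adjusted p of 0.05 or less over 10311 genes. Standard errors come from the F statistic, as |log2 fold change| over its root. DESeq2 1.42.0, other scalings and filters, a replicate block and leaving out each library were tried; the fit was tested on simulated data.

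Values are given for RNAs on the list of snoRNA hosts and well-known lncRNAs, and for the largest called changes whose groups do not overlap (5 each way for dTAG and LIF, 3 for the other comparisons). Chaserr, 4933404O12Rik, pseudogenes with a tested parent and some range ends were named after their values were seen. The RNAs and lists were chosen with earlier results of these data known. The design named classes by symbol; position was added, and pseudogenes set apart, after the files were seen. Libraries of a group differed by more than sampling noise. Over all genes tested, same-numbered libraries did not deviate together (correlations of 0.03 to 0.05 over 2 pairs). Single RNAs could differ from this. Firre, D7Ertd143e, Snhg14, Snhg3 and 6820431F20Rik were higher in the second library of every group, and Malat1 only in the OCT4-FKBP groups. A shift shared by same-numbered libraries was not tested for single RNAs.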

Additional observations from a re-analysis of the deposited data

How the results depend on the processing

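Counts of called RNAs, or their shares where the set itself changed, stayed within 1.5 times of the reported ones in 120 of 126 values. With DESeq2, 3 were higher and 14 lower with dTAG, and 11 were higher in DMSO than in WT with LIF. Of 32 RNAs with 2000 reads or more, 10 had a negative difference of responses. The causes were not tested. For counts from a fit other than the main one, here and below, the share of all genes called is not given. Such counts thus have no background beside them. Leaving out each library in turn gave 3 to 5 higher and 15 to 27 lower with dTAG, 13 to 15 higher and 31 to 39 lower without LIF, 23 to 27 positive and 12 to 15 negative differences, and 12 to 18 higher and 15 to 22 lower in DMSO than in WT with LIF. With a replicate block, 5 were higher and 26 lower with dTAG, 15 higher and 39 lower without LIF, and 17 higher and 23 lower in DMSO. Snhg3 with dTAG (adjusted p = 0.032 in edgeR) and Chaserr without LIF (0.037) then passed. Snhg3 also passed with no filter (0.02) and with the compared groups fitted alone (0.041), where Snhg6 passed too (0.043). Same-numbered libraries are not known to be paired. Among named RNAs, log2 fold changes near 0 changed sign: Snhg5 with dTAG was 0.0074 with RLE factors, 0.0082 with DESeq2, 0.0073 without a filter, 0.0025 with the replicate block and 0.0010 over genes with 1 accession, and Malat1 without LIF was 0.025 with RLE factors and 0.027 with DESeq2. Leaving out each library gave, with dTAG, -0.50 to 0.32 for Firre, -0.30 to 0.0030 for Norad, -0.084 to 0.074 for Snhg5, -0.0891 to 0.49 for Snhg14 and -0.56 to 0.033 for Snhg3, and -0.21 to 0.23 for Malat1 without LIF. Scaling moved the median of all genes by less than 0.1. With 2 libraries a group, small changes cannot be told from library spread.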

Other observations

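Ftx and Tsix, RNAs of the X-inactivation centre with fewer than 1000 reads, were higher without LIF. Ftx, which lies upstream of Xist and favours its expression, had 26.4 and 26.0 CPM without LIF and 1.32 and 1.88 CPM with LIF (log2 fold change 4.05, SE 0.20, adjusted p = 1.1e-15 in edgeR). With dTAG it had 10.8 and 11.9 CPM, against 2.81 and 3.61 CPM with DMSO (log2 fold change 1.78, SE 0.20, adjusted p = 6e-08 in edgeR), so its groups were apart in both comparisons. Jpx, another RNA of that region, had 1.11 and 1.64 CPM without LIF and was listed at 0 in the other 6 libraries, with 25 reads in all. Tsix, antisense to Xist, had 6.23 and 7.36 CPM without LIF and 2.91 and 5.65 CPM with LIF (log2 fold change 0.70, SE 0.26, adjusted p = 0.022 in edgeR). With dTAG Tsix had 8.76 and 9.43 CPM, against 7.02 and 10.7 CPM with DMSO, a log2 difference of -0.01 (adjusted p = 0.98 in edgeR), and it was higher in DMSO than in WT with LIF (log2 fold change 1.15, SE 0.25, adjusted p = 0.00059 in edgeR). Xist itself had 17 reads in all and was not tested.

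Some other listed RNAs under the threshold also moved. Of the well-known lncRNAs there that were tested, edgeR called 3 higher and 1 lower with dTAG, and 10 were not called. Without LIF 3 were higher, 4 were lower and 7 were not called. Besides those described here and above, Rpph1 was higher with dTAG (log2 fold change 1.21). Lncenc1 (-2.41) and Platr4 (-0.83) were lower without LIF. Tunar, a conserved RNA of neural and ES cells, had only 101 reads over all libraries, so its values rest on few reads. Its level was 0.109 and 0.111 CPM with dTAG and 2.67 and 2.20 CPM with DMSO. Without LIF it was 0.512 and 0.409 CPM, against 2.38 and 2.24 CPM with LIF. Trp53cor1, the p53-induced lincRNA-p21, had 11.1 and 11.9 CPM with dTAG and 6.18 and 5.90 CPM with DMSO (log2 fold change 0.93, SE 0.18), and 4.01 and 4.23 CPM without LIF and 7.15 and 8.59 CPM with LIF (log2 fold change -0.93, SE 0.21). Of 8 snoRNA hosts with fewer than 1000 reads that were tested, none was called with dTAG by edgeR (1 had an unadjusted p under 0.05) or by DESeq2. Without LIF 5 fell by edgeR (Gas5, Snhg7, Snhg10, Snhg20 and Epb41l4aos), from -0.46 to -1.70 on the log2 scale, and DESeq2 called 3 of the 8. Over all genes tested, edgeR called 40.5% with dTAG and 68.4% without LIF.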
